A study of Mus musculus with 6 samples.

Results

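The interleukin 1 (IL-1) receptor family and its adaptors were followed as 10 genes picked by symbol from a table of 50763. The receptor chains were Il1r1, Il1r2, Il1rap, Il1rl1, Il18r1 and Il18rap. The adaptor Myd88 and the kinase-family genes Irak1, Irak4 and Irak3 completed the set. The set was picked because Il1r1 separated the groups compared here, so differences of the members between those groups are given as descriptions. Counts of members past a test threshold are printed beside the share over all genes, and nothing is read from them. All 10 genes were found and all 10 passed the filter on low counts, which left 19313 genes.

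RNA came from CD34- KSL cells of mouse bone marrow, which are lineage-negative cells with c-Kit and Sca-1 on their surface and a population rich in long-term haematopoietic stem cells. All mice had the genotype Tal1-tTA+/TRE-EGFR-tr+, in which a doxycycline-repressed activator under a Tal1 control element drives a receptor lacking its cytoplasmic tyrosine kinase domain. The EGFR-DN group (n = 3 libraries) went without doxycycline and made this truncated epidermal growth factor receptor beside the normal one. The EGFR-WT group (n = 3) drank water with 0.2 g/L doxycycline, which shut the transgene off. Truncated receptor and absence of doxycycline therefore cannot be told apart. The labels give no age or sex and do not say whether each library came from its own animal, so the spread between libraries may be partly technical.

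Libraries held 24073133 to 36032428 counts. Counts of Egfr were 6 in every EGFR-WT library, and 4022, 4758 and 991 were found for EGFR-DN replicates 1 to 3, in the direction of the labels. EGFR-DN replicate 3 stood apart, with 25.4% of its counts in 8 rRNA-like genes against 4.71% to 6.15% elsewhere. Differences of the members that rest on it are given with and without it. Kit was at 736 to 806 CPM (counts scaled to a common library size by TMM, a trimmed mean of log ratios) in 5 libraries and at 1962 CPM in EGFR-DN replicate 3, and Ly6a, the Sca-1 gene, at 46.7 to 78.4 CPM. Cd34 transcript was present at 318 to 569 CPM although the cells were sorted as lacking the surface protein. All 10 listed stem cell markers passed the filter, as did 9 of 10 T, NK and innate lymphoid markers, the exception being Cd3e.

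Receptors of this family bind a cytokine with a ligand-binding chain and then recruit an accessory chain, and the paired intracellular TIR domains assemble MyD88 with IRAK4 and IRAK1. The complex activates TRAF6, TAK1 and then NF-kB and MAP kinases. In haematopoietic stem cells IL-1 is known to favour myeloid output through the transcription factor PU.1, and prolonged exposure impairs self-renewal. IL1R1 signals in response to IL-1 alpha and beta. IL1R2 binds the same ligands but lacks the signalling domain and acts as a decoy.

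The promoter windows of Il1r1 and Il18rap are shown because the groups did not overlap in these receptor genes. Il1r2, the other receptor gene without overlap, had few counts and its window is not shown. Each window runs from 250 bases before to 50 bases after a RefSeq start site, on the + strand of GRCm38.p6, an earlier build than the mm39 named by the submitters for the counts. RefSeq gave 2 start sites for Il1r1, and gene counts do not tell which one was used. Capitals mark matches to 5 motifs searched on both strands, namely the NF-kB consensus, the PU.1 motif GAGGAAGT, the RUNX factor motif TGTGGT, the erythroid GATA factor motif AGATAA and the promoter box TATAAA. No matches overlapped in these 3 windows.
Il1r1 first start, chr1:40224830-40225129: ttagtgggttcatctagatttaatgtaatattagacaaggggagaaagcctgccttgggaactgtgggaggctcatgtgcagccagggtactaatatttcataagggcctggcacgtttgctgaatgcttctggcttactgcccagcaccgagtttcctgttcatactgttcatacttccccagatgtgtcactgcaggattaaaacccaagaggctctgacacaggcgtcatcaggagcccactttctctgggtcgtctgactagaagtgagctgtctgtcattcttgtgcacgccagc
Il1r1 second start, chr1:40266336-40266635: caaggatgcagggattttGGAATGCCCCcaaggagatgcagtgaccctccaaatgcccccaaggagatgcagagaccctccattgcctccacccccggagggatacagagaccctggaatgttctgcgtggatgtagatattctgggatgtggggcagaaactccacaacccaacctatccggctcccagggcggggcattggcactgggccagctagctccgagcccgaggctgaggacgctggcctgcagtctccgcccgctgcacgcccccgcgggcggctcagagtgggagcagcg
Il18rap, chr1:40515112-40515411: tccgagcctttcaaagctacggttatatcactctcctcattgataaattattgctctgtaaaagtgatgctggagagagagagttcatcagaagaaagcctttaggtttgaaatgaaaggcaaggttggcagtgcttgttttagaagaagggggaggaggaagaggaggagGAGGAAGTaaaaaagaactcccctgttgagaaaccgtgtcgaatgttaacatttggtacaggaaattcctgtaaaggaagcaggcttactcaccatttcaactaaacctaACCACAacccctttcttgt
The first Il1r1 window held none of the 5 motifs and 5 CpG dinucleotides. The second held 14 CpG and 1 NF-kB match on the opposite strand, a motif found in 8.46% of 32851 windows of 300 bases genome-wide. The Il18rap window held 4 CpG, 1 PU.1 match (3.20% of windows) and 1 RUNX match on the opposite strand (16.8% of windows). Motif matches are a description of the letters only, and the motifs were chosen with the values of the members known.

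Il1r1, the signalling receptor for IL-1, was at 28.8, 29.2 and 32.3 CPM in EGFR-WT replicates 1 to 3 and at 70.4, 51.6 and 61.2 CPM in EGFR-DN replicates 1 to 3. The groups did not overlap, and the lowest EGFR-DN library was 1.60-fold above the highest EGFR-WT library. Means were 30.1 ± 1.93 and 61.1 ± 9.41 CPM (SD, n = 3 each), a ratio of 2.03 and a log2 fold change of 1.02 (EGFR-DN minus EGFR-WT, SE 0.16). The ratio was 2.03 without the rRNA-rich EGFR-DN replicate 3 as well. Over 16 alternative analyses the log2 fold change stayed between 0.90 and 1.12. In bulk RNA a larger share of cells carrying the transcript and more transcript per cell cannot be told apart.

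Il1r2, the decoy receptor, had only 25 to 80 counts per library. It was at 1.84, 1.63 and 0.986 CPM in EGFR-WT and at 2.33, 2.04 and 2.28 CPM in EGFR-DN. The groups were separated by a narrow gap, with a log2 fold change of 0.57 (SE 0.33). The CPM ratio of Il1r1 to Il1r2 within a library was 15.6, 17.9 and 32.8 in EGFR-WT and 30.2, 25.3 and 26.8 in EGFR-DN. The groups overlapped in that ratio through EGFR-WT replicate 3, where Il1r2 had 25 counts. A shift of the signalling receptor relative to its decoy was not tested.

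Il1rap, the accessory chain shared by the IL-1, IL-33 and IL-36 receptors, was at 25.8, 29.8 and 25.4 CPM in EGFR-WT and at 25.8, 24.8 and 31.7 CPM in EGFR-DN. The groups overlapped almost fully and the log2 fold change was 0.02 (SE 0.16), with an opposite sign in 6 of 16 alternatives, scaling by library size alone among them. The CPM ratio of Il1r1 to Il1rap within a library was 1.12, 0.978 and 1.27 in EGFR-WT and 2.73, 2.08 and 1.93 in EGFR-DN. Mean ratios were 1.12 ± 0.146 and 2.24 ± 0.424 (SD, n = 3 each), without overlap.

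Il1rl1, also called ST2, is the binding chain for IL-33. It was at 3.84, 7.75 and 7.65 CPM in EGFR-WT and at 6.68, 5.47 and 17.7 CPM in EGFR-DN. Its higher EGFR-DN mean came from replicate 3, where it was 2.83-fold above the mean of the other 5 libraries. The log2 fold change was 0.63 (SE 0.50) with all libraries and −0.08 without that one.

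The 2 chains of the IL-18 receptor are Il18r1, which binds the cytokine, and Il18rap, its accessory chain. Il18rap was at 28.9, 27.8 and 33.0 CPM in EGFR-WT and at 54.7, 44.9 and 35.8 CPM in EGFR-DN. The groups did not overlap, although EGFR-DN replicate 3 lay only 1.09-fold above the highest EGFR-WT library. The log2 fold change was 0.60 (SE 0.19), and leaving out EGFR-DN replicate 3 gave 0.73.

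Il18r1 was less abundant, at 6.51, 5.73 and 7.85 CPM in EGFR-WT and 9.28, 6.81 and 10.9 CPM in EGFR-DN. Its groups overlapped through EGFR-DN replicate 2, and the log2 fold change was 0.42 (SE 0.25), or 0.26 without EGFR-DN replicate 3. Within a library the CPM ratio of Il18rap to Il18r1 was 4.50 ± 0.326 in EGFR-WT and 5.26 ± 1.75 in EGFR-DN (SD, n = 3 each), and the groups overlapped.

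**Figure D1:**
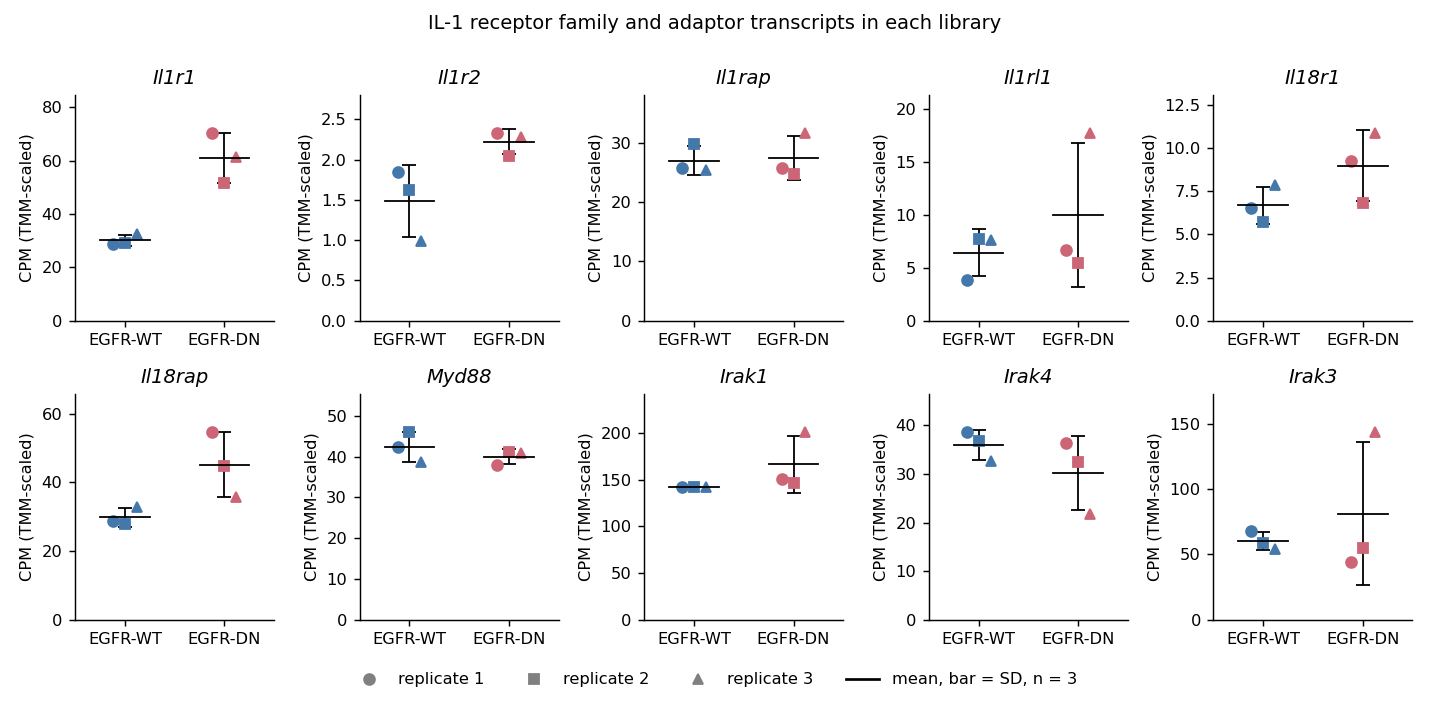
CPM of the 10 genes (vertical axes, each from 0) in EGFR-WT and EGFR-DN libraries; symbols mark replicates, horizontal lines the mean and bars the SD (n = 3). Il1r1 is at 28.8 to 32.3 CPM in EGFR-WT and 51.6 to 70.4 CPM in EGFR-DN, while Il1rl1 and Irak3 are high in EGFR-DN replicate 3 alone.

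Myd88, the adaptor that links TIR domains to the IRAK kinases, was at 42.5, 46.1 and 38.6 CPM in EGFR-WT and 37.9, 41.1 and 41.0 CPM in EGFR-DN. These groups overlapped, with a log2 fold change of −0.08 (SE 0.14). Irak4, the kinase first bound by MyD88, was at 38.7, 36.8 and 32.7 CPM in EGFR-WT and 36.3, 32.5 and 21.7 CPM in EGFR-DN. Its lowest value was in EGFR-DN replicate 3, and the log2 fold change of −0.25 (SE 0.21) became −0.07 without that library.

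Irak1, the kinase that IRAK4 phosphorylates, was at 143, 142 and 143 CPM in EGFR-WT and at 151, 147 and 201 CPM in EGFR-DN. The groups did not overlap, but the gap to the lowest EGFR-DN library was only 1.03-fold. The log2 fold change was 0.22 (SE 0.18) and 0.06 without EGFR-DN replicate 3. Irak3, or IRAK-M, restrains signalling from the MyD88 complex. It was at 68.2, 58.8 and 54.1 CPM in EGFR-WT and at 44.1, 55.2 and 143.9 CPM in EGFR-DN.

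EGFR-DN replicate 3 therefore decided the direction of Irak3, whose log2 fold change was 0.42 (SE 0.43) with all libraries and −0.29 without it. The CPM ratio of Irak3 to Irak4 within a library was 1.76, 1.60 and 1.66 in EGFR-WT. In EGFR-DN it was 1.21 and 1.70 for replicates 1 and 2 but 6.63 for replicate 3. That library also carried 25.4% rRNA-like counts, and the part of this in the Irak3 value was not tested.

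**Figure D2:**
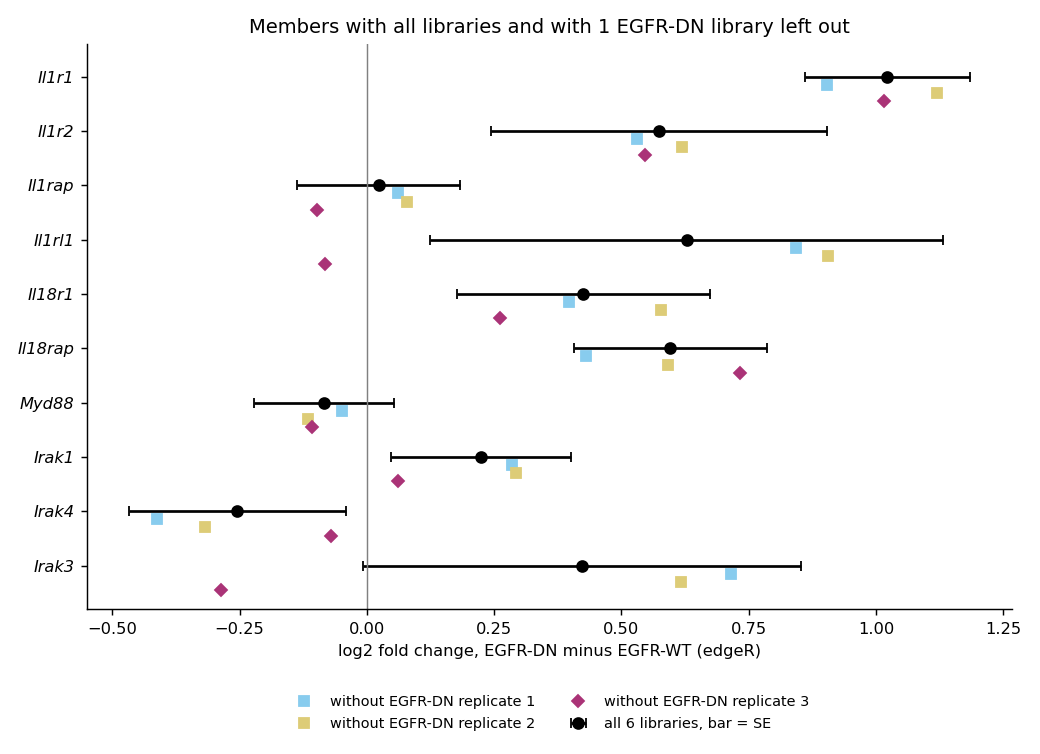
Log2 fold change of each gene (horizontal axis, EGFR-DN minus EGFR-WT, edgeR) with all 6 libraries (black, bar = SE) and with 1 EGFR-DN library left out (colours). Il1r1 stays between 0.90 and 1.12, whereas Il1rl1 and Irak3 move to −0.08 and −0.29 without EGFR-DN replicate 3.

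As a set, 8 of the 10 genes had a log2 fold change above 0, against 51.0% of all 19313 genes tested, and the median was 0.42 against 0.01 over all genes. Without EGFR-DN replicate 3 it was 5 of 10 and a median of −0.0054. All 6 receptor chains lay above 0 (median 0.58), though Il1rap only by 0.02 and Il1rl1 through 1 library, and 2 of the 4 downstream genes did (median 0.07). Of the 10 genes, 4 had all EGFR-DN values above all EGFR-WT values (Il1r1, Il1r2, Il18rap and Irak1), an order found in 9.21% of all genes tested, and 0 had the opposite order (8.72% of all genes). By edgeR's quasi-likelihood test with Benjamini-Hochberg adjustment 0 of the 10 passed an adjusted p of 0.05, against 0.00518% of all genes, and 2 had an unadjusted p under 0.05, against 6.69%. DESeq2 passed 1 of 10, Il1r1, against 0.775% of genes given an adjusted p. Without EGFR-DN replicate 3, edgeR passed 1 of 10, Il1r1, against 0.286% of all genes, and DESeq2 passed 2 of 10, Il1r1 and Il18rap, against 5.51% of genes given an adjusted p. As the genes were picked on this contrast, nothing is read from these counts.

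Levels were compared between genes per kilobase of the longest coding transcript (GENCODE M21). In EGFR-WT, Irak1 was highest at 37.1 ± 0.0839 CPM per kilobase, followed by Myd88 at 21.6 ± 1.91, Irak3 at 19.5 ± 2.31 and Irak4 at 10.5 ± 0.895 (SD, n = 3). Among receptor chains Il18rap was at 6.11 ± 0.559, Il1rap at 5.98 ± 0.538 and Il1r1 at 5.17 ± 0.332 CPM per kilobase. Il18r1 at 1.61 ± 0.258, Il1rl1 at 1.21 ± 0.420 and Il1r2 at 1.05 ± 0.314 came last. In EGFR-WT the shared adaptor and kinases were more abundant than any receptor chain. Neighbours that did not differ beyond their spread were Myd88 and Irak3, Il18rap and Il1rap, Il18r1 and Il1rl1, and Il1rl1 and Il1r2.

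In EGFR-DN, Il1r1 was at 10.5 ± 1.62 CPM per kilobase and stood at rank 4 of 10, against rank 7 in EGFR-WT. Il18rap at 9.23 ± 1.94 and Irak4 at 8.78 ± 2.21 were next to it and within its spread. Il1rap was at 6.08 ± 0.827. The order of Il1rap and Il1r1 in EGFR-WT depends on the length used, since over merged exons Il1rap was at 3.14 and Il1r1 at 4.92 CPM per kilobase.

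Positions are given as a description. The genes were picked by family, so nothing is read from receptor genes lying together, and Il1r1 was picked for its difference between the groups. Of the 10 genes, 5 receptor genes lie together on chromosome 1 in the order Il1r2, Il1r1, Il1rl1, Il18r1 and Il18rap, with the IL-36 receptor gene Il1rl2 between Il1r1 and Il1rl1. The other members are on chromosomes 9, 10, 15, 16 and X. Il1rl2 was at 7.88 to 10.4 CPM in EGFR-WT and at 9.51, 7.74 and 15.9 CPM in EGFR-DN, with overlap (log2 fold change 0.28, SE 0.30). Beside Il1r2, the kinase gene Map4k4 was at 29.3 to 36.4 CPM in EGFR-WT and 27.9 to 41.0 CPM in EGFR-DN, also with overlap (0.06, SE 0.19). Il1r1 thus lay next to coding genes whose groups overlapped or, for Il1r2, nearly touched. As Il1r1 was picked for its difference, nothing is read from its contrast with these neighbours.

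Beyond Map4k4, Gm3646 had no counts and Rfx8 was at 0.406 to 2.10 CPM. On the side of Il18rap, the ion exchanger gene Slc9a4 had no counts and its relative Slc9a2 was at 0.868 to 0.953 CPM in EGFR-WT and 1.08 to 1.52 CPM in EGFR-DN (0.52, SE 0.32). Mfsd9, a transporter-family gene, had overlapping groups (−0.40, SE 0.29).

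**Figure D3:**
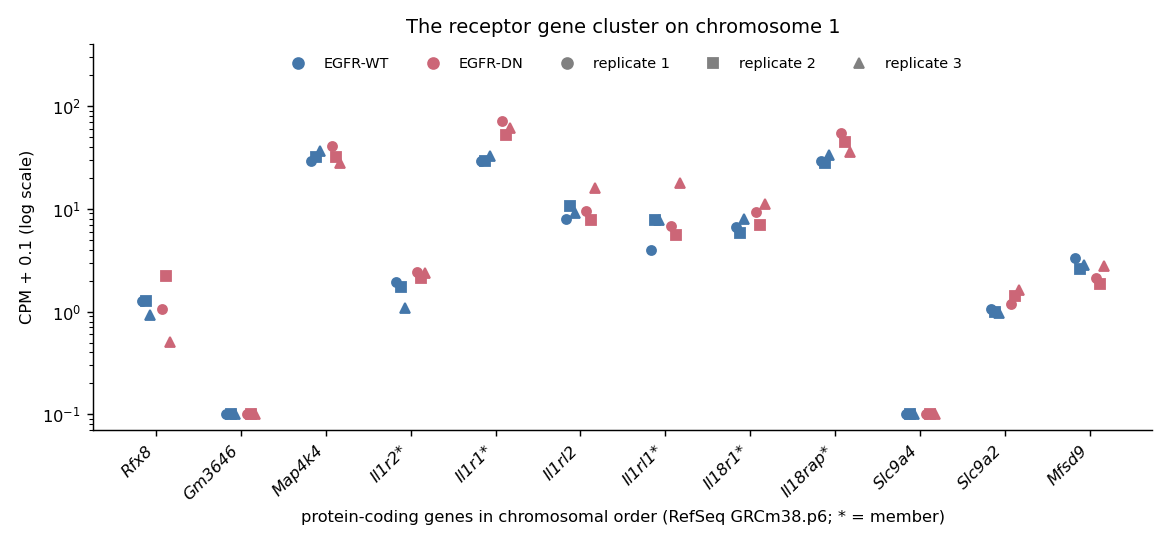
CPM + 0.1 (log axis) of 12 coding genes in chromosomal order around the receptor cluster on chromosome 1, with EGFR-WT libraries in blue, EGFR-DN libraries in red and symbols for replicates; asterisks mark members. Il1r1, for which the set was picked, shows the widest gap between groups of the 12. The gap is 1.60-fold from the highest EGFR-WT to the lowest EGFR-DN library, and Gm3646 and Slc9a4 are at 0.

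Among the genes whose log2 CPM followed Il1r1 most closely over the 6 libraries, of 11102 searched, were Cd47, Kcng1, Cds1 and Plppr3 (Pearson r = 0.990, 0.990, 0.984 and 0.982). All 6 points share the division into groups, which enters r, and r is a description. Cd47, the signal that restrains phagocytosis, was at 497 to 502 CPM in EGFR-WT and 566 to 611 CPM in EGFR-DN. Among members the closest were Il18rap at r = 0.88 and Il18r1 at r = 0.77, ahead of Il1r2 at 0.70 and Irak1 at 0.59.

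Other genes of the pathway were read from 7 lists with 103 genes, of which 82 passed the filter. By edgeR 0 of these 82 passed an adjusted p of 0.05 (smallest adjusted p = 0.690), and at an unadjusted p under 0.05 there were 11 higher (4.3% of all genes) and 1 lower (2.4% of all genes). Of all 19313 genes edgeR passed Egfr alone (adjusted p = 0.00981), and the second smallest adjusted p was 0.524. A count of 0 by edgeR in a list therefore does not show that the list was unchanged. DESeq2 passed 3, all higher, namely Nlrp3, Cd180 and Unc93b1, against 0.569% of genes given an adjusted p that passed as higher. The median log2 fold change was 0.12.

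Transcripts of the ligands were scarce. Of 11 cytokines and antagonists 9 averaged under 1 CPM, and the IL-36 family genes Il36a, Il36b and Il36rn had no counts. Il1b, which encodes IL-1 beta, was at 0.340 to 0.826 CPM. Il1a had 3, 4 and 5 counts in EGFR-WT and 0 in each EGFR-DN library.

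Il18 was the most abundant ligand gene, at 15.6 to 17.2 CPM in EGFR-WT and 11.9 to 15.6 CPM in EGFR-DN. Il18bp, whose product traps IL-18, was at 14.96, 15.4 and 9.27 CPM in EGFR-WT and 8.11, 8.93 and 8.77 CPM in EGFR-DN (log2 fold change −0.62, SE 0.24). Its groups did not overlap and it did not pass (edgeR adjusted p = 0.690). Of 3 ligand genes tested, 0 passed in either direction.

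Among 12 inflammasome and processing genes, which mature IL-1 beta and IL-18, 0 passed by edgeR (4 higher at an unadjusted p under 0.05). The median was 0.13, or 0.20 without EGFR-DN replicate 3. Casp1, the converting protease, was at 33.994, 37.8 and 30.2 CPM in EGFR-WT and 38.5, 37.2 and 31.7 CPM in EGFR-DN. Nlrp3, an inflammasome sensor, was at 0.314 ± 0.140 and 1.58 ± 0.824 CPM (log2 fold change 2.33, SE 0.57). It had 8, 8 and 12 counts in EGFR-WT and 56, 26 and 47 in EGFR-DN. It passed by DESeq2 (adjusted p = 0.0395, and between 0.0395 and 0.912 across the 14 alternatives that gave it an adjusted p). The sensor Nlrc4 was at 1.71 ± 0.249 and 3.78 ± 0.974 CPM (1.14, SE 0.30) and passed only by DESeq2 without EGFR-DN replicate 3. The most abundant, the sensor Naip5 and the adaptor Pycard, had overlapping groups.

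Of 3 other receptors tested 0 passed, and the inhibitory receptor gene Sigirr was at 50.7 ± 3.34 CPM in EGFR-WT and 47.2 ± 2.61 CPM in EGFR-DN (SD, n = 3). Among 19 signalling genes tested 0 passed, with a median of 0.17, or 0.0059 without EGFR-DN replicate 3. Irak2, a kinase relative of Irak1, was at 9.94, 10.1 and 12.9 CPM in EGFR-WT and 14.5, 14.4 and 16.4 CPM in EGFR-DN (0.46, SE 0.18). Traf6, the ubiquitin ligase after the IRAKs, was at 59.9, 63.9 and 64.8 CPM in EGFR-WT and 65.1, 65.2 and 151.7 CPM in EGFR-DN. Its mean difference rested on EGFR-DN replicate 3, with a log2 fold change of 0.58 (SE 0.34) with all libraries and 0.05 without it.

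Toll-like receptors share MyD88 and the IRAKs with this family. Of 15 such genes tested 0 passed by edgeR (4 higher at an unadjusted p under 0.05). The median was 0.35, or 0.37 without EGFR-DN replicate 3. Unc93b1, which carries nucleic-acid-sensing Toll-like receptors to endosomes, was at 46.5, 53.1 and 54.7 CPM in EGFR-WT and 77.4, 75.3 and 76.8 CPM in EGFR-DN (0.57, SE 0.13). It passed by DESeq2 (adjusted p = 0.0263, and between 2.54e-06 and 0.912 across alternatives). Cd180, a Toll-like receptor relative of B cells and myeloid cells, was at 7.52 ± 2.53 and 25.9 ± 12.9 CPM (1.78, SE 0.40). It also passed by DESeq2 (adjusted p = 0.00806, and between 0.000194 and 0.912).

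Tlr7 was at 3.20 ± 1.07 and 7.20 ± 1.68 CPM (1.17, SE 0.34), and Ly86, the partner of CD180, at 2.69 ± 0.311 and 7.22 ± 4.25 CPM (1.43, SE 0.45). Neither passed by edgeR or DESeq2 with all libraries, and DESeq2 passed both without EGFR-DN replicate 3. Tlr2 and Tlr4, the receptors for bacterial lipopeptide and lipopolysaccharide, had overlapping groups (−0.04, SE 0.18, and −0.45, SE 0.31) and were named after their values were seen.

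Of 11 NF-kB subunits and inhibitors 0 passed, with a median of 0.10, or −0.03 without EGFR-DN replicate 3. Rel, the c-Rel subunit, was at 21.95, 25.1 and 26.1 CPM in EGFR-WT and 38.5, 28.6 and 62.7 CPM in EGFR-DN (0.83, SE 0.29, or 0.46 without EGFR-DN replicate 3). Nfkbia, an inhibitor that NF-kB itself induces, was at 161, 159 and 151 CPM in EGFR-WT and 139.7, 161 and 57.6 CPM in EGFR-DN (−0.40, SE 0.35, or −0.07 without EGFR-DN replicate 3), with overlap.

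Of 19 tested genes known to be induced by IL-1 or NF-kB 0 passed. The median was 0.06, or −0.05 without EGFR-DN replicate 3. Tnfaip3, which encodes the feedback deubiquitinase A20, was at 16.0 to 17.2 CPM in EGFR-WT and 15.4 to 18.003 CPM in EGFR-DN, and was named after its values were seen. Spi1, the PU.1 gene, was at 51.4, 59.5 and 55.4 CPM in EGFR-WT and 78.8, 77.4 and 120.4 CPM in EGFR-DN (0.73, SE 0.21). Its groups did not overlap, and it did not pass by edgeR (adjusted p = 0.690) or by DESeq2 with all libraries, but by DESeq2 without EGFR-DN replicate 3. The inflammatory products Cxcl1, Csf2, Csf3, Saa3 and Lcn2 did not pass the filter. Lcn2 had 0 to 2 counts in EGFR-WT and 2 to 12 in EGFR-DN.

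**Figure D4:**
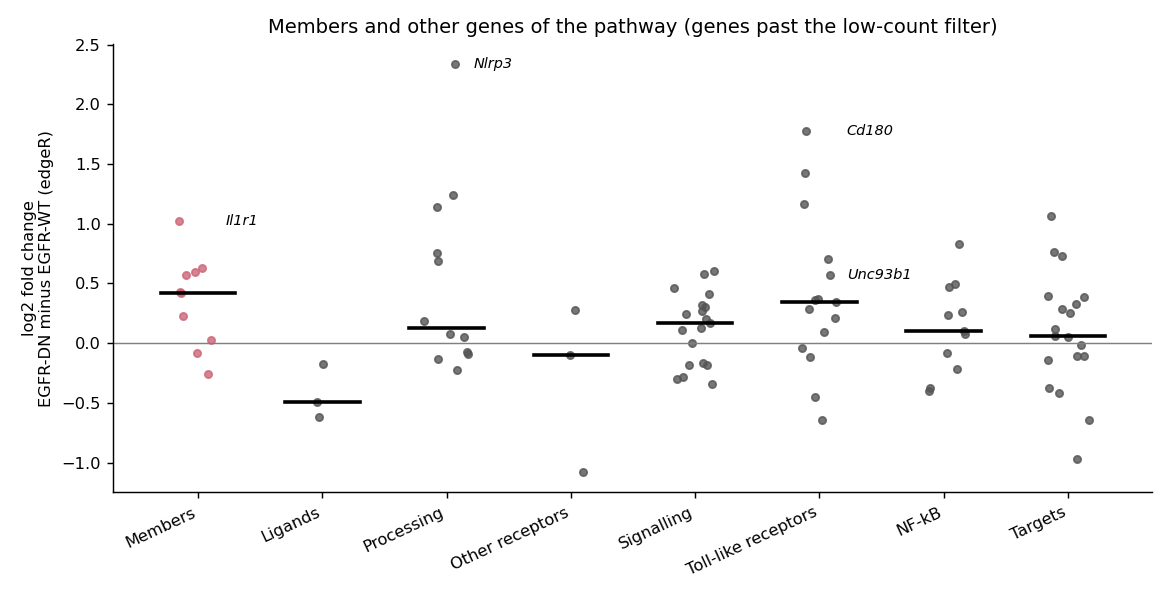
Log2 fold change (vertical axis, EGFR-DN minus EGFR-WT, edgeR) of the 10 members (red) and of the tested genes of 7 pathway lists (grey); bars are medians. Genes that passed by DESeq2 are named. With all 6 libraries the list medians run from −0.49 for 3 ligand genes to 0.35 for 15 Toll-like receptor genes.

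Markers of the sorted cells and of other cells were read beside these values from lists of 5 to 10 tested genes. Genes named here beyond the most abundant were chosen after their values were seen. As background for the marker lists, 51.0% of all 19313 genes tested had a log2 fold change above 0. DESeq2 with all libraries passed 0.569% of genes given an adjusted p as higher and 0.207% as lower. The summed level of 10 stem cell markers was 978 to 1310 CPM in EGFR-WT, 592 and 769 CPM in EGFR-DN replicates 1 and 2, and 1731 CPM in replicate 3. Of these 10 markers 8 had a log2 fold change below 0 (median −0.37), and all 10 did without EGFR-DN replicate 3 (median −0.69). By DESeq2 Procr and Esam, surface proteins of long-term stem cells, fell (−1.25, SE 0.33, adjusted p = 0.0495, and −0.72, SE 0.16, adjusted p = 0.0158; log2 fold changes and SE from edgeR), and 0 of the 10 passed by edgeR. Both were lower in all 3 EGFR-DN libraries than in any EGFR-WT library. Without EGFR-DN replicate 3 DESeq2 passed Hlf, Fgd5, Ctnnal1 and Esam as lower, against 5.51% of genes given an adjusted p in either direction. Procr did not pass there, with a log2 fold change of −1.02 by edgeR.

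Multipotent and lymphoid-primed progenitor markers (8 genes) summed to 802 to 1018 CPM in EGFR-WT, 1866 and 1492 CPM in EGFR-DN replicates 1 and 2, and 1006 CPM in replicate 3. All 8 had a log2 fold change above 0 (median 0.89), and DESeq2 passed Flt3 and Satb1 as higher. The sum of 10 neutrophil markers was 369 to 534 CPM in EGFR-WT and 778 to 1421 CPM in EGFR-DN, most of it Mpo, the myeloperoxidase gene. S100a8, S100a9, Ltf, Ngp, Camp, Mmp8 and Cxcr2 of this list did not exceed 4.31 CPM in any library. All 8 neutrophil markers tested lay above 0 (median 1.497), and DESeq2 passed Mpo.

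For 9 monocyte markers the sum was 268 to 281 CPM in EGFR-WT, 343 and 328 CPM in EGFR-DN replicates 1 and 2, and 154.8 CPM in replicate 3, most of it Lyz2, the lysozyme gene. Of 8 tested, 7 lay above 0 (median 0.60), and DESeq2 passed Irf8, Cx3cr1 and Ly6c2 as higher. The 9 mast cell and basophil markers summed to 298 to 364 CPM in EGFR-WT, 235 and 248 CPM in EGFR-DN replicates 1 and 2, and 386 CPM in replicate 3, most of it Gata2, which stem cells also express. Of 7 tested, 2 lay above 0, Cpa3 (0.82, SE 0.27) and Hdc (0.90, SE 0.29), both higher in every EGFR-DN library. The basophil protease gene Mcpt8 fell by DESeq2 (adjusted p = 0.000239) and was lower in every EGFR-DN library. Its log2 fold change by edgeR was −1.34 (SE 0.23). Tpsb2 and Cma1 of this list were at 0 in 5 and 4 of the 6 libraries.

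The 10 T, NK and innate lymphoid markers summed to 200.4 to 218 CPM in EGFR-WT and 230 to 292 CPM in EGFR-DN, of which Nkg7, a cytotoxic granule gene, made up 98.9 to 145 and 149.9 to 226 CPM. Of 9 tested, 5 lay above 0 (median 0.05). Nkg7 and Cd4, the latter at 0.506 to 2.74 CPM, had every EGFR-DN library above every EGFR-WT library (0.64, SE 0.23, and 1.39, SE 0.46). Klrb1c and Gata3 had every EGFR-DN library below every EGFR-WT library (−1.33, SE 0.40, and −0.32, SE 0.15). DESeq2 with all libraries passed 0 of these 9. Cd3e was at 0 in 3 libraries.

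The 7 matched B lineage markers summed to 34.9 to 43.7 CPM in EGFR-WT and 43.9 to 61.0 CPM in EGFR-DN, and 5 of 5 tested lay above 0 (0 passed). The sum of 10 stromal and endothelial markers, 65.7 to 81.8 and 78.2 to 109.7 CPM, overlapped between groups, with 3 of 7 tested above 0, and DESeq2 passed Pdgfrb as higher. The part of any of these cells in the values of Il1r1 and Il18rap was not tested.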

How the data were processed

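The values the authors deposited are estimated counts by gene symbol without scaling, 79.4% of them exactly whole with zeros counted and 60.2% of those above 0. SMART-Seq cDNA from 10 ng of RNA, primed with oligo(dT), went into Nextera XT libraries and single reads of 75 bases, per the labels' protocols. DRAGEN, DESeq2 1.40.2, R 4.3.1 and mm39 appear, without roles, per the submitters' processing notes. No source used here names the annotation or the strand setting, and this kit does not mark strand.

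Counts were rounded, filtered with filterByExpr, scaled by TMM and tested two-sided by quasi-likelihood in edgeR 4.0.16 (R 4.3.3), with Benjamini-Hochberg adjustment over 19313 genes and a threshold of 0.05. SE was the absolute log2 fold change over the root of F. DESeq2 1.42.0 and limma 3.58.1 served as alternatives. The scripts were tested on simulated counts. No 2 libraries were duplicates (smallest chi-square per degree of freedom 16.3). A count of 3 equals 0.0799 to 0.152 CPM, for counting error only. The members and lists were chosen with earlier results of these data known. Of 187 listed symbols 186 were matched, the exception being Vpreb1. All 10 members had a RefSeq promoter window (16 in all, GRCm38.p6).

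Genes named are the members, Egfr, the sort markers Kit, Ly6a and Cd34, and in each pathway list genes past the threshold in edgeR or DESeq2, up to 4 with the smallest p at a mean of at least 1 CPM and the 2 most abundant. Added to these are the coding neighbours of the cluster, up to 3 on each side, the 5 genes (mean at least 4 CPM) most like Il1r1 over log2(CPM + 0.5), and the 2 most abundant genes of each marker list. Not all of these are printed, and 1 of the genes most like Il1r1 is not reported here. Other genes named, such as Il1a, Il1b, Casp1, Il36a and those below the filter, were chosen after their values were seen.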

Additional observations from a re-analysis of the deposited data

How the results depend on the processing

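The number of genes past the threshold depended on the test and on single libraries. It was 1 by edgeR (Egfr), 135 by DESeq2 (99 higher, 36 lower) and 0 by limma-voom. With 1 library left out it was 0 to 57 by edgeR (57 without EGFR-DN replicate 3, 0 without any 1 EGFR-WT library). DESeq2 without EGFR-DN replicate 3, an alternative added after the data were seen, gave 884. DESeq2 with all libraries called 1 of 12 processing genes tested and 2 of 15 Toll-like receptor genes, all higher, against 0.569% of genes given an adjusted p. Without EGFR-DN replicate 3 it called 5.51% of genes given an adjusted p in either direction. Among the lists it then called 1 processing gene, Nlrc4 (Nlrp3 was given no adjusted p there), and 6 Toll-like receptor genes, all higher. Of 19 target genes it called 3, with Spi1 higher and Cxcl10 and Csf1 lower. The median log2 fold change of the 10 members was 0.42, from −0.0054 to 0.59 with 1 library left out, and −0.0032 by DESeq2 without EGFR-DN replicate 3. With the replicate number as a block, 1 gene passed and the median of the members was 0.31. The numbers were not taken to pair the libraries, since same-numbered deviations correlated at −0.02, 0.06 and 0.06, and not every library correlated best with its own number. The sign of Il1rap changed in 6 of 16 alternatives, and those of Il1rl1 and Irak3 in the 2 without EGFR-DN replicate 3. The other 7 members kept their sign in all 16. Scaling by library size alone moved the median of all genes to −0.10 and Il1r1 to 0.91. Il1r2, at 25 to 80 counts, is the member most limited by depth.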
